A study of Mus musculus with 18 samples.

Results

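Cholesterol and fatty acid synthesis were followed in mouse embryonic stem (ES) cells through 32 genes, 18 enzymes of the sterol pathway, 5 genes of sterol control and transport and 9 genes of fatty acid synthesis, elongation and desaturation. The genes were taken by name, under their present or an older symbol, from the 30848 rows of the authors' expression matrix. A row existed for 30 of them, and 29 passed the filter on undetected probes: 16 sterol enzymes, all 5 genes of control and transport, and 8 fatty acid genes. The expression of Hmgcs1 and Fdft1 was not analysed here, and Acaca, which makes malonyl-CoA, was represented only by a clone row whose probe was detected on 0 of the 18 arrays. The cells were the lines AB2.2 and PL2F8, sampled with total RNA at days 0, 2, 4, 6 and 8 after LIF, the cytokine that holds mouse ES cells undifferentiated, was taken away. Each line had 2 bead arrays at days 0, 2, 4 and 6 and 1 at day 8. The labels give no genotype, medium or feeder layer for either line. Nor do they state that paired arrays were grown as separate cultures, so a p-value here covers just the scatter among these arrays, which could be technical.

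Cells make cholesterol from acetyl-CoA through mevalonate, isoprenoid units, squalene and a series of sterol intermediates, and they make fatty acids from the same acetyl-CoA. Both branches are controlled by the membrane-bound transcription factors Srebf1 and Srebf2, which the escort protein Scap carries to the Golgi for cleavage when sterols are scarce and which Insig1 holds back in the endoplasmic reticulum when sterols are plentiful. Srebf2 is known mainly for sterol genes, Srebf1 for fatty acid genes, and Insig1 is itself one of their targets.

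Signals are given on the log2 scale after background correction and quantile normalization, so a difference of 1 is a factor of 2, and a change is called when its adjusted p (limma, Benjamini-Hochberg over 16113 genes) is below 0.05. Values after ± are standard errors of the model. The mean raw signal of an array was 283.6 to 492.7 except on the PL2F8 arrays of day 6 (137.4 and 134.8) and day 8 (60.1), and the day 8 array detected only 20.9% of probes. The difference between the 2 PL2F8 arrays of day 6 had an SD of 0.333 over genes, against 0.152 to 0.191 between the arrays of the other pairs. The model takes 1 spread per gene for all groups. The ± and adjusted p of PL2F8 at day 6, and of its interactions, therefore do not reflect this wider scatter and may be too small. If the 3 PL2F8 arrays of days 6 and 8, called dim below, are left out, PL2F8 has no value at those days. Scaling each array to the median of all its probes, in place of quantile normalization, moved the median of all genes to -0.24 in PL2F8 at day 4, -1.08 at day 6 and -2.04 at day 8. It became -0.12 in PL2F8 at day 2 and 0.17 in AB2.2 at day 6, and on the mean of both lines it became -0.37 at day 6, -0.89 at day 8 and -0.33 for day 6 against day 4. It became -0.69 for the mean difference between the lines. For the difference between the lines' changes it became -0.37 at day 4 and -1.42 at day 6. Each array was also scaled to the median of the kept probes alone (median of all genes between -0.22 and 0.14 in every comparison).

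At day 2 after LIF removal sterol enzymes rose in both lines. On the mean of both lines (4 arrays against 4 of day 0) 10 of the 16 were higher and 0 lower. Their median log2 change was 0.36, while 22.2% of all genes were higher, 23.3% were lower and their median change was 0.00. Within AB2.2 9 were higher (17.5% of all genes higher, 17.3% lower), and within PL2F8 9 were higher (17.5% higher, 19.0% lower). Mvd, Fdps, Sqle, Lss, Cyp51, Msmo1 and Dhcr7 were called in each line. They reach from the mevalonate decarboxylase to the last reductase of cholesterol synthesis, with steps between them that were not called in each line. None of these directions turned under either median scaling.

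Cyp51, the lanosterol demethylase, moved most. In AB2.2 its signal was 7.99 and 7.93 (day 0), 8.95 and 8.84 (day 2), 7.81 and 7.81 (day 4), 7.31 and 7.40 (day 6) and 7.53 (day 8). The PL2F8 arrays read 7.54 and 7.63 (day 0), 8.71 and 8.56 (day 2), 8.01 and 8.11 (day 4), 8.33 and 8.20 (day 6) and 6.99 (day 8). The day 2 arrays of each line were above all its other arrays, and the change at day 2 was 0.99 ± 0.06 (adjusted p = 4.32e-08). Sqle, the squalene epoxidase that performs the first oxygen-dependent step, read 10.06 and 10.02 (day 0), 10.89 and 10.98 (day 2), 10.40 and 10.46 (day 4), 9.63 and 9.77 (day 6) and 9.96 (day 8) in AB2.2. Its PL2F8 values were 9.92 and 10.08 (day 0), 10.98 and 10.87 (day 2), 10.41 and 10.39 (day 4), 9.83 and 10.06 (day 6) and 8.99 (day 8). Its rise at day 2 was 0.91 ± 0.07 (adjusted p = 2.37e-07) and was nearly the same size in the lines (0.90 and 0.92), with the day 2 arrays above all others of their line.

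Dhcr7, which reduces 7-dehydrocholesterol to cholesterol, read 7.66 and 7.53 (day 0), 8.29 and 8.38 (day 2), 7.68 and 7.83 (day 4), 7.11 and 7.12 (day 6) and 7.03 (day 8) in AB2.2. On PL2F8 arrays the values were 7.28 and 7.28 (day 0), 7.99 and 7.95 (day 2), 8.19 and 8.40 (day 4), 8.55 and 8.62 (day 6) and 8.09 (day 8). Both lines rose by day 2 (0.72 ± 0.06, adjusted p = 1.34e-06), after which the AB2.2 signal went down and the PL2F8 signal went on up to day 6. Lss, the lanosterol synthase that closes the sterol rings, read 9.14 and 9.10 (day 0), 9.75 and 9.42 (day 2), 8.54 and 8.38 (day 4), 7.74 and 7.90 (day 6) and 8.18 (day 8) in AB2.2. For PL2F8 the signal was 8.06 and 8.18 (day 0), 9.05 and 8.93 (day 2), 8.71 and 8.64 (day 4), 8.27 and 8.40 (day 6) and 7.15 (day 8). Its day 2 change was 0.67 ± 0.08 (adjusted p = 1.97e-05), with both day 2 arrays above all others of their line. Smaller rises were called for Idi1 (0.59 ± 0.11), the isopentenyl diphosphate isomerase, Fdps (0.58 ± 0.06), which makes farnesyl diphosphate, Msmo1 (0.50 ± 0.05), a sterol methyl oxidase, and Mvd (0.40 ± 0.07). Hsd17b7 (0.31 ± 0.05), a sterol ketoreductase, and Acat2 (0.20 ± 0.07), which makes acetoacetyl-CoA at the entry of the pathway, complete the 10. Mvk, Pmvk, Tm7sf2, Nsdhl, Ebp and Sc5d did not pass the test, with changes from 0.01 (Pmvk) to 0.23 (Tm7sf2).

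**Figure D1:**
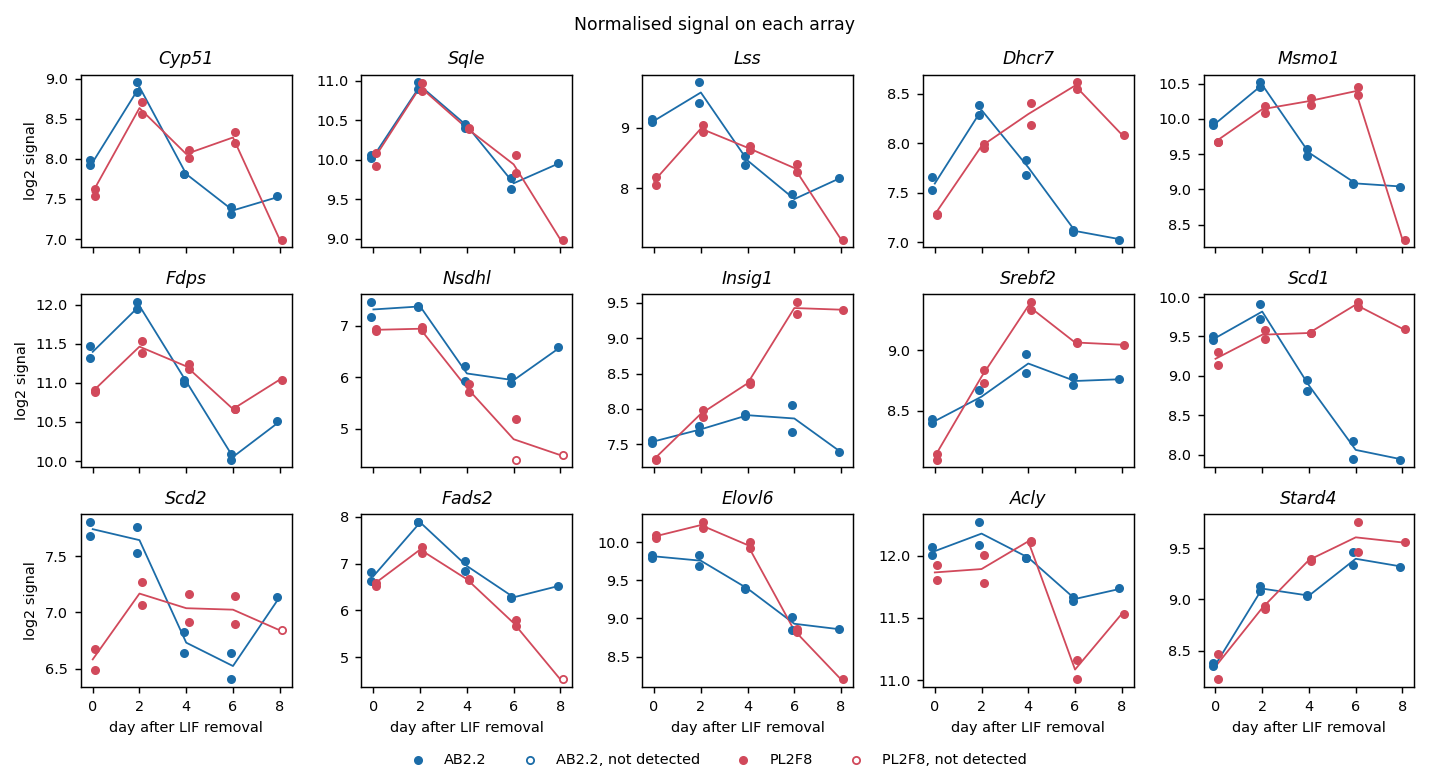
Normalised log2 signal (y axis) against day after LIF removal (x axis) for 15 genes, one point per array and a line through the group means, AB2.2 in blue and PL2F8 in red, open points not detected. Cyp51, Sqle and Lss are highest at day 2 in both lines, and Scd1 and Dhcr7 then go down in AB2.2 and up in PL2F8 to day 6 (under median scaling over all probes the PL2F8 changes at day 6 are -1.33 for Scd1 and -0.58 for Dhcr7).

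The sequences just before the transcription start are shown for 7 genes. They are the 4 sterol enzymes with the largest day 2 rise among those with a single promoter entry, Insig1, and the 2 fatty acid genes with the largest day 6 change. The letters are RefSeq sequences of the mouse build GRCm38.p6, 250 bases read 5′ to 3′ toward the start. Capitals mark CCAAT or its reverse complement ATTGG, the core letters bound by NF-Y, a factor known to work beside the SREBP proteins at sterol promoters.
Cyp51: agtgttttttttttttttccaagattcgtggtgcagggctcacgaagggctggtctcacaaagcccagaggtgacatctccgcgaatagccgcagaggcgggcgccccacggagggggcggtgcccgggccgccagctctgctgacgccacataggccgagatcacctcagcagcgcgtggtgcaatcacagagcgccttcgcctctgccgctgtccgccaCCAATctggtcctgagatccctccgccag
Lss: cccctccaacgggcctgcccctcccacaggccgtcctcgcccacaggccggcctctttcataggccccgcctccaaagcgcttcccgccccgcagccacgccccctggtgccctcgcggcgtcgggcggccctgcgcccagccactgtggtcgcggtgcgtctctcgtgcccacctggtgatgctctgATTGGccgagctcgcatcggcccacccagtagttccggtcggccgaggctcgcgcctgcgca
Idi1: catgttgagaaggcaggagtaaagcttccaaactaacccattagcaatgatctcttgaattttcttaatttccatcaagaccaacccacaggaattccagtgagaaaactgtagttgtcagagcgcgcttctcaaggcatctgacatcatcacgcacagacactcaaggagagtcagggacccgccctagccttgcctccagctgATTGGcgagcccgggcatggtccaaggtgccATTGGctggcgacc
Msmo1: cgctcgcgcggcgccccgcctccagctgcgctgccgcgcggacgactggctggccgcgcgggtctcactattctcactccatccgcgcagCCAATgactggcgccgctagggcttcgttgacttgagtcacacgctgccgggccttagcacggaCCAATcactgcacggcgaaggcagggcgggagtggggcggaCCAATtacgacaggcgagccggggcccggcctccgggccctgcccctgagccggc
Insig1: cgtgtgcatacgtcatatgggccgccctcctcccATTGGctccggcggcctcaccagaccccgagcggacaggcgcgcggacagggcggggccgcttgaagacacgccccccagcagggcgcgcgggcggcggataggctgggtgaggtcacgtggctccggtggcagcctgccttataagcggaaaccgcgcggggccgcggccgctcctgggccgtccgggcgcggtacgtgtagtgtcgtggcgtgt
Elovl6: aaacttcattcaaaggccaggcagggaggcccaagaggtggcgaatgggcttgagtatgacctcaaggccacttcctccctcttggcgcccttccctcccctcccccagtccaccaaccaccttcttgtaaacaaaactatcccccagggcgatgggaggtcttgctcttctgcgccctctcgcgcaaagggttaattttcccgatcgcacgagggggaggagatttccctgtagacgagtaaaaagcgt
Fads2: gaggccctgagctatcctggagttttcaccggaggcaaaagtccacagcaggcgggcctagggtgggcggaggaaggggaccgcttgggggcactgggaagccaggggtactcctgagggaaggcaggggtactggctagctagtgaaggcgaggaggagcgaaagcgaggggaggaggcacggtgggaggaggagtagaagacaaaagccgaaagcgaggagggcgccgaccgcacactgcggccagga
The windows lie at chr5:4104698-4104947 on the minus strand (Cyp51), chr10:76531355-76531604 on the plus strand (Lss), chr13:8885356-8885605 on the plus strand (Idi1), chr8:64733579-64733828 on the minus strand (Msmo1), chr5:28071162-28071411 on the plus strand (Insig1), chr3:129532136-129532385 on the plus strand (Elovl6) and chr19:10101504-10101753 on the minus strand (Fads2).

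The 15 sterol enzymes with a promoter entry include Hmgcs1, whose expression was not analysed, and lack Fdps, Fdft1 and Sqle. Of these 15, 14 held CCAAT on either strand within these 250 bases, all but Acat2. So did 3 of 4 genes of control and transport (Insig1, Srebf1 and Srebf2) and 2 of 6 fatty acid genes (Fasn and Elovl5), while 37.49% of all 27025 genes with an entry did. The letters did not follow the calls of day 2. Mvk, Pmvk, Tm7sf2, Nsdhl, Ebp and Sc5d, not called then, all held CCAAT, while Acat2 and Fads2, called higher, did not. In the printed windows CCAAT began 29 bases before the start in Cyp51, 62 in Lss, 45 and 14 in Idi1, 160, 96 and 55 in Msmo1 and 216 in Insig1, and neither Elovl6 nor Fads2 held it. The letters GGGCGG, the core bound by Sp1, were in 14 of the 15 sterol enzymes, all but Pmvk, in 4 of 4 genes of control and transport and in 2 of 6 fatty acid genes (Acly and Fads2), against 35.36% of all genes. All 3 spellings searched for the sterol regulatory element, which overlap one another and were read on both strands, were rare: TCACNCCAC was in Hmgcs1 alone (1.22% of all genes) and TCACNCNAC in Hmgcs1 and Nsdhl (2.65%). The exact element of the LDL receptor promoter was in 0 of the members (0.08%). These 5 motifs were all that was searched, and a match is a description and not a bound site.

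Among the fatty acid genes at day 2 the desaturases Fads2, Fads1 and Scd1 rose. On the mean of both lines 3 of 8 were higher and 1 lower (22.2% of all genes higher, 23.3% lower), with a median change of 0.21. Fads2, the delta-6 desaturase that starts the synthesis of long polyunsaturated fatty acids, read 6.63 and 6.83 (day 0), 7.88 and 7.89 (day 2), 6.85 and 7.05 (day 4), 6.29 and 6.28 (day 6) and 6.53 (day 8) in AB2.2. PL2F8 gave 6.60 and 6.51 (day 0), 7.37 and 7.24 (day 2), 6.66 and 6.68 (day 4), 5.80 and 5.66 (day 6) and 4.52 (day 8, not detected). The day 2 arrays were the highest of each line, and the change was 0.95 ± 0.07 (adjusted p = 1.65e-07). Fads1, the delta-5 desaturase of the same route, read 10.75 and 10.65 (day 0), 11.31 and 11.24 (day 2), 10.62 and 10.69 (day 4), 10.24 and 10.37 (day 6) and 10.60 (day 8) in AB2.2. In PL2F8 it read 10.96 and 10.93 (day 0), 11.32 and 11.26 (day 2), 11.14 and 11.21 (day 4), 10.75 and 10.71 (day 6) and 10.72 (day 8). Its day 2 change was 0.46 ± 0.05, again with the day 2 arrays above all others of their line. Scd1, the stearoyl-CoA desaturase that makes monounsaturated fatty acids, rose by 0.32 ± 0.07, and Elovl5, an elongase of polyunsaturated fatty acids, was lower (-0.20 ± 0.05). Acly, which supplies cytosolic acetyl-CoA to both branches, changed by 0.08 ± 0.07, Elovl6 by 0.05 ± 0.06, Scd2 by 0.24 ± 0.10 and Fasn, the fatty acid synthase, by 0.18 ± 0.15, none of them called.

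Of the 5 control and transport genes 3 were called higher at day 2 on the mean of both lines, where 22.2% of all genes were higher. At day 6 4 were higher, beside 34.0% of all genes, and 2 were under median scaling over all probes. At either day 0 were lower. Insig1 read 7.57 and 7.51 (day 0), 7.67 and 7.75 (day 2), 7.89 and 7.93 (day 4), 8.05 and 7.67 (day 6) and 7.38 (day 8) in AB2.2. The PL2F8 arrays read 7.29 and 7.28 (day 0), 7.88 and 7.98 (day 2), 8.38 and 8.35 (day 4), 9.51 and 9.35 (day 6) and 9.40 (day 8). In PL2F8 every later day lay above the one before it up to day 6, with changes of 0.64 ± 0.11 at day 2, 1.07 ± 0.11 at day 4 and 2.14 ± 0.11 at day 6 (0.21 at day 6 under median scaling over all probes). In AB2.2 the changes were 0.17 ± 0.11, 0.37 ± 0.11 and 0.32 ± 0.11. Srebf2 read 8.43 and 8.40 (day 0), 8.67 and 8.56 (day 2), 8.97 and 8.81 (day 4), 8.78 and 8.71 (day 6) and 8.76 (day 8) in AB2.2. Its PL2F8 values were 8.10 and 8.15 (day 0), 8.73 and 8.84 (day 2), 9.34 and 9.39 (day 4), 9.07 and 9.06 (day 6) and 9.04 (day 8). With its brightest probe it was highest at day 4 in both lines, at 0.48 ± 0.08 in AB2.2 and 1.24 ± 0.08 in PL2F8. It was called again at day 6 (0.33 and 0.94, the latter -1.05 under median scaling over all probes). A second probe was highest at day 6 on the mean of both lines (0.84, and 0.71 at day 4).

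Srebf1 stayed near background. In AB2.2 it read 4.83 and 4.85 (day 0), 5.23 and 5.36 (day 2), 5.23 and 4.75 (day 4), 5.15 and 5.24 (day 6) and 5.09 (day 8). On PL2F8 arrays the values were 4.64 and 5.06 (day 0, the lower not detected), 4.77 and 5.29 (day 2), 4.74 and 4.83 (day 4, the lower not detected), 4.27 and 4.79 (day 6, not detected) and 4.28 (day 8, not detected). It was detected on 13 of the 18 arrays and was not called in either line at days 2, 4 or 6. Scap rose in AB2.2 (0.34 ± 0.12 at day 4 and 0.56 ± 0.12 at day 6) and was 0.23 ± 0.12 and 0.15 ± 0.12 in PL2F8, not called (-1.46 at day 6 under median scaling over all probes, where it was called). Stard4, which carries cholesterol between membranes, rose at every day in both lines, from 0.74 ± 0.10 at day 2 to 1.04 ± 0.10 at day 6 in AB2.2. In PL2F8 its rise went from 0.57 ± 0.10 to 1.26 ± 0.10 (-0.75 at day 6 under median scaling over all probes).

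By day 4 the changes from day 0 differed between the lines. Mean levels had drawn closer for Lss (PL2F8 8.12 and AB2.2 9.12 at day 0, 8.67 and 8.46 at day 4). They had drawn apart for Msmo1 (9.68 and 9.93 at day 0, 10.25 and 9.52 at day 4). On the mean of both lines 6 sterol enzymes were higher and 6 lower than at day 0 (32.2% of all genes were higher and 28.2% lower), and under median scaling over all probes 3 were higher. Of the 16, 12 were lower and 1 higher than at day 2 (27.7% of all genes were higher and 22.8% lower). Mvk is among the lower in both counts but was detected on 0 of the 4 arrays of day 4. Its fall there has only a bound, at least 0.09 from day 0 and 0.15 from day 2 on the log2 scale. In AB2.2 8 of 16 were below day 0 and 1 above it (27.4% of all genes higher, 23.6% lower), with a median of -0.22. In PL2F8 9 were above day 0 and 3 below it (26.4% higher, 24.7% lower), with a median of 0.36, and under median scaling 1 (all probes) or 7 (kept probes) were above. Fdps, Lss and Msmo1 were called lower in AB2.2 and higher in PL2F8, although under median scaling over all probes the PL2F8 changes were -0.29 for Fdps, 0.05 for Lss and 0.01 for Msmo1, and with its probes averaged Fdps was 0.091 in AB2.2. Nsdhl, Ebp and Acat2 were called lower in both lines, and Sqle higher in both (-0.18 in PL2F8 under median scaling over all probes, and -0.20 in AB2.2 and -0.15 in PL2F8 with its probes averaged). Of the 8 fatty acid genes 4 were lower and 0 higher in AB2.2, and 4 were higher and 1 lower in PL2F8, where Acly, Scd1 and Fads1 were below 0 under median scaling over all probes.

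Msmo1 read 9.91 and 9.95 (day 0), 10.52 and 10.45 (day 2), 9.57 and 9.47 (day 4), 9.07 and 9.10 (day 6) and 9.04 (day 8) in AB2.2. For PL2F8 the signal was 9.68 and 9.68 (day 0), 10.09 and 10.19 (day 2), 10.20 and 10.30 (day 4), 10.33 and 10.45 (day 6) and 8.29 (day 8). The AB2.2 arrays of days 4 to 8 were all below day 0, and the PL2F8 arrays of days 2 to 6 were all above it. Fdps read 11.47 and 11.32 (day 0), 12.03 and 11.94 (day 2), 11.04 and 10.99 (day 4), 10.09 and 10.02 (day 6) and 10.51 (day 8) in AB2.2. PL2F8 gave 10.88 and 10.90 (day 0), 11.39 and 11.54 (day 2), 11.18 and 11.24 (day 4), 10.67 and 10.66 (day 6) and 11.04 (day 8). It was highest at day 2 in both lines and lowest at day 6, where its change from day 0 was -1.34 ± 0.08 in AB2.2 and -0.23 ± 0.08 in PL2F8 (0.86 in PL2F8 when its 2 probes were averaged).

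Pmvk, the phosphomevalonate kinase, read 7.53 and 7.58 (day 0), 7.47 and 7.54 (day 2), 6.56 and 6.51 (day 4), 6.26 and 6.44 (day 6) and 6.45 (day 8) in AB2.2. In PL2F8 it read 7.24 and 7.15 (day 0), 7.25 and 7.26 (day 2), 7.08 and 7.18 (day 4), 7.28 and 6.89 (day 6) and 4.57 (day 8, not detected). It was lower in AB2.2 at day 4 (-1.02 ± 0.11 against day 0, adjusted p = 7.26e-06) and was -0.06 ± 0.11 in PL2F8, not called. Nsdhl, the sterol dehydrogenase that removes a carboxyl group during demethylation, read 7.45 and 7.18 (day 0), 7.37 and 7.38 (day 2), 5.92 and 6.22 (day 4), 5.88 and 6.00 (day 6) and 6.58 (day 8) in AB2.2. The PL2F8 arrays read 6.94 and 6.89 (day 0), 6.91 and 6.96 (day 2), 5.87 and 5.71 (day 4), 4.40 and 5.19 (day 6, the lower not detected) and 4.49 (day 8, not detected). Its arrays of days 4 and 6 were below those of days 0 and 2 in both lines without overlap, with changes at day 4 of -1.24 ± 0.20 in AB2.2 and -1.12 ± 0.20 in PL2F8. Acat2 read 9.23 and 9.34 (day 0), 9.60 and 9.49 (day 2), 8.69 and 8.67 (day 4), 8.22 and 8.27 (day 6) and 8.77 (day 8) in AB2.2. Its PL2F8 values were 9.04 and 9.18 (day 0), 9.19 and 9.30 (day 2), 8.74 and 8.59 (day 4), 8.31 and 8.56 (day 6) and 8.81 (day 8). It too fell by day 4 in both lines (-0.60 ± 0.10 and -0.44 ± 0.10) without overlap with day 0.

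**Figure D2:**
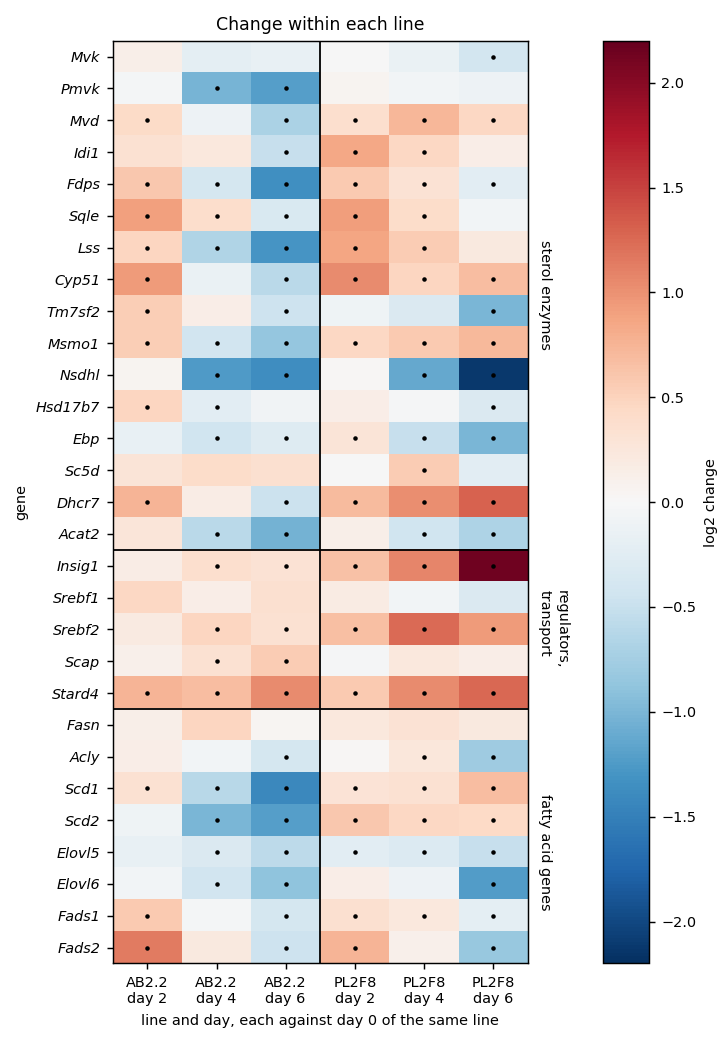
Log2 change of each gene (rows) at days 2, 4 and 6 against day 0 of the same line (columns, AB2.2 left and PL2F8 right), red higher and blue lower, with a dot where the change was called. Most sterol enzymes are red at day 2 in both lines, most are blue in AB2.2 at day 6, and in PL2F8 Dhcr7, Msmo1, Cyp51 and Mvd are called higher at day 6 (all 4 are below 0 under median scaling over all probes).

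In AB2.2 most of both branches lay below day 0 at day 6. Of 16 sterol enzymes 13 were lower and 0 higher (28.4% of all genes higher, 26.6% lower), with a median of -0.56, and of 8 fatty acid genes 7 were lower and 0 higher, with a median of -0.51. Under median scaling over all probes, which moved all genes up, 8 and 4 were lower and Ebp became 0.01. The lowest were Nsdhl (-1.37 ± 0.20), Fdps (-1.34 ± 0.08), Lss (-1.30 ± 0.11), Pmvk (-1.21 ± 0.11) and Acat2 (-1.04 ± 0.10). Cyp51 (-0.60 ± 0.09), Dhcr7 (-0.48 ± 0.09) and Sqle (-0.34 ± 0.09), which had risen at day 2, were below day 0 as well, and Mvk, Hsd17b7 and Sc5d were not called (-0.16, -0.09 and 0.36).

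In PL2F8 at day 6, on the dim arrays, 7 sterol enzymes were lower and 4 higher than at day 0 (31.1% of all genes higher, 35.0% lower), with a median of -0.17 beside a median of all genes of -0.03. The 4 higher were Dhcr7 (1.30 ± 0.09), Msmo1 (0.72 ± 0.08), Cyp51 (0.68 ± 0.09) and Mvd (0.46 ± 0.09). These directions turned, since under median scaling over all probes they were -0.58, -1.31, -1.19 and -1.40. Over the kept probes Msmo1 was -0.10 and Mvd -0.18 while Dhcr7 stayed above 0 at 0.64 and was called. Under scaling over all probes 0 were higher and all 16 lower. The lowest were Nsdhl (-2.12 ± 0.20, detected on 1 of the 2 arrays), Ebp (-1.00 ± 0.09), the sterol isomerase, and Tm7sf2 (-1.00 ± 0.17, detected on 1 of 2), a sterol reductase. Tm7sf2 read 5.61 and 5.02 (day 0), 5.86 and 5.86 (day 2), 5.52 and 5.41 (day 4), 4.94 and 4.78 (day 6) and 5.06 (day 8) in AB2.2. On PL2F8 arrays the values were 5.70 and 5.89 (day 0), 5.73 and 5.68 (day 2), 5.51 and 5.45 (day 4), 5.03 and 4.56 (day 6, the lower not detected) and 4.41 (day 8, not detected). The day 6 arrays of each line were below all its earlier arrays. Mvk, 1 of the 7 lower, was not detected on either PL2F8 array of day 6, so its change there is not supported. Its direction turned over the kept probes, where it was called higher at 0.80 on the same undetected signals, which is not supported either.

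Of the 8 fatty acid genes in PL2F8 at day 6, on the dim arrays, 5 were lower and 2 higher, with a median of -0.36. Of all genes 31.1% were higher and 35.0% lower. Elovl6, which elongates palmitate to stearate, read 9.79 and 9.84 (day 0), 9.68 and 9.84 (day 2), 9.39 and 9.40 (day 4), 8.85 and 9.02 (day 6) and 8.86 (day 8) in AB2.2. For PL2F8 the signal was 10.05 and 10.10 (day 0), 10.19 and 10.27 (day 2), 10.01 and 9.92 (day 4), 8.82 and 8.86 (day 6) and 8.20 (day 8). The arrays of days 6 and 8 were below all earlier arrays of their line, with changes of -0.89 ± 0.08 and -1.23 ± 0.08 at day 6, and the direction held under both median scalings. Acly read 12.07 and 12.00 (day 0), 12.27 and 12.09 (day 2), 11.98 and 11.98 (day 4), 11.63 and 11.67 (day 6) and 11.74 (day 8) in AB2.2. PL2F8 gave 11.80 and 11.93 (day 0), 12.01 and 11.78 (day 2), 12.12 and 12.11 (day 4), 11.01 and 11.17 (day 6) and 11.53 (day 8). It was below day 0 at day 6 in both lines without overlap, with changes of -0.38 ± 0.10 and -0.78 ± 0.10. Elovl5 read 11.01 and 11.02 (day 0), 10.92 and 10.79 (day 2), 10.76 and 10.64 (day 4), 10.46 and 10.42 (day 6) and 10.57 (day 8) in AB2.2. In PL2F8 it read 11.28 and 11.23 (day 0), 11.02 and 11.02 (day 2), 10.96 and 10.94 (day 4), 10.74 and 10.74 (day 6) and 10.06 (day 8). It was lower than at day 0 on every later array of both lines. Fasn read 4.81 and 4.47 (day 0, the lower not detected), 4.64 and 4.89 (day 2, the lower not detected), 5.33 and 4.91 (day 4), 4.73 and 4.66 (day 6, the lower not detected) and 4.88 (day 8) in AB2.2. The PL2F8 arrays read 4.49 and 4.90 (day 0, the lower not detected), 4.86 and 4.99 (day 2), 5.06 and 4.98 (day 4), 5.25 and 4.59 (day 6, the lower not detected) and 5.15 (day 8, not detected). It was detected on 12 of the 18 arrays and was not called within either line at days 2, 4 or 6.

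The stearoyl-CoA desaturases took different courses in the lines. Scd1 read 9.46 and 9.51 (day 0), 9.72 and 9.91 (day 2), 8.81 and 8.94 (day 4), 8.17 and 7.95 (day 6) and 7.94 (day 8) in AB2.2. Its PL2F8 values were 9.30 and 9.13 (day 0), 9.46 and 9.58 (day 2), 9.55 and 9.54 (day 4), 9.93 and 9.87 (day 6) and 9.60 (day 8). From day 4 on every AB2.2 array was below every PL2F8 array, and against day 0 its change in AB2.2 was -0.60 ± 0.10 at day 4 and -1.42 ± 0.10 at day 6. In PL2F8 it was higher by 0.33 ± 0.10 at day 4 (-0.19 under median scaling over all probes) and 0.69 ± 0.10 at day 6 (-1.33 over all and -0.11 over kept probes). Scd2 read 7.68 and 7.80 (day 0), 7.52 and 7.76 (day 2), 6.64 and 6.82 (day 4), 6.40 and 6.64 (day 6) and 7.14 (day 8) in AB2.2. On PL2F8 arrays the values were 6.67 and 6.49 (day 0), 7.06 and 7.27 (day 2), 7.16 and 6.91 (day 4), 7.15 and 6.90 (day 6) and 6.84 (day 8, not detected). It was higher in AB2.2 than in PL2F8 at day 0 and lower at days 4 and 6, each time with no overlap between the arrays. Its changes were -1.01 ± 0.14 and -1.22 ± 0.14 in AB2.2 against 0.45 ± 0.14 and 0.44 ± 0.14 in PL2F8 (the last -1.13 under median scaling over all probes).

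**Figure D3:**
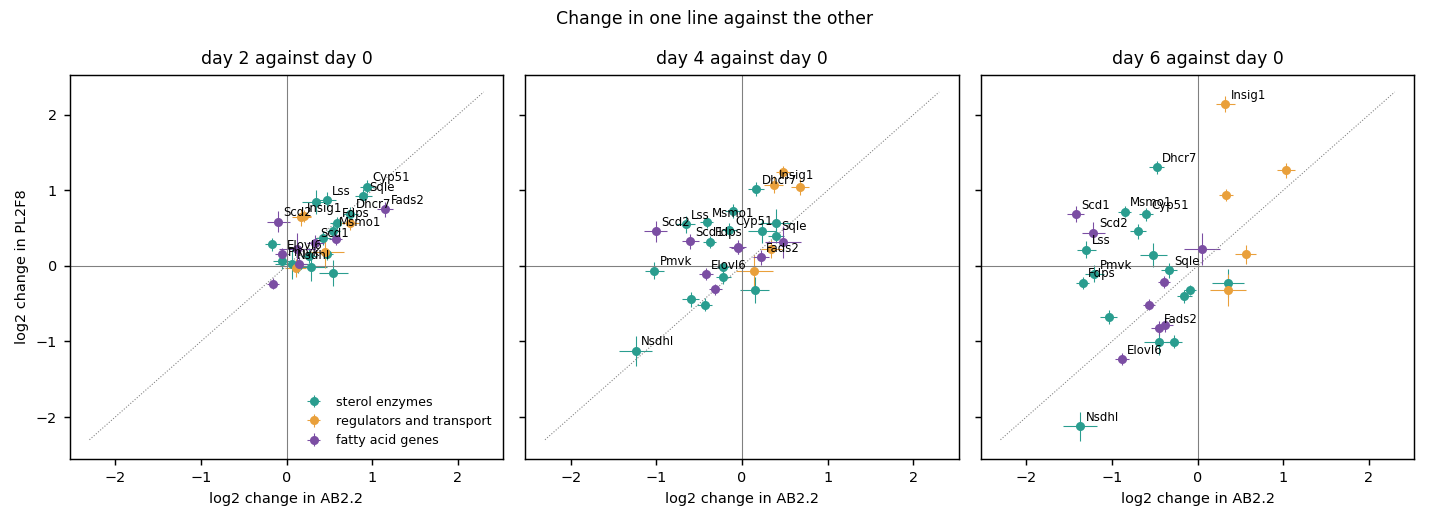
Log2 change in PL2F8 (y axis) against that in AB2.2 (x axis) for the 29 genes at days 2, 4 and 6, each against day 0 of its own line, with standard errors of the model as bars, colours for the gene groups and a dotted line of equal change. At day 2 the genes lie near the dotted line, and at days 4 and 6 Scd1, Scd2, Lss, Msmo1 and Dhcr7 lie above it (at day 6 all of these fall below it under median scaling over all probes).

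The difference between the lines' changes was tested directly as an interaction, PL2F8 change minus AB2.2 change. At day 2 it was called for 1 of 16 sterol enzymes, Ebp, for 1 of 5 control genes, Srebf2, and for 1 of 8 fatty acid genes, Scd2, all higher in PL2F8. Of all genes 4.12% were called higher and 6.01% lower, and Ebp was not called under median scaling over all probes, nor with any of 9 arrays left out singly. At day 4, where the mean signal of the PL2F8 arrays was 283.6 and 286, it was above 0 for 7 sterol enzymes and below 0 for 0 (14.8% of all genes higher, 15.1% lower), with a median of 0.22. These were Lss (1.21 ± 0.16, adjusted p = 0.000126), Msmo1 (0.99 ± 0.11), Pmvk (0.96 ± 0.16), Dhcr7 (0.85 ± 0.13), Mvd (0.83 ± 0.13), Fdps (0.70 ± 0.11) and Cyp51 (0.62 ± 0.12). All 7 kept their direction under both median scalings, although only Lss and Pmvk were still called over all probes. Insig1 (0.70 ± 0.15), Srebf2 (0.77 ± 0.11), Scd1 (0.93 ± 0.14) and Scd2 (1.46 ± 0.19) were called in the same direction.

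At day 6, where PL2F8 is given by its dim arrays, the interaction was above 0 for 9 sterol enzymes and below 0 for 2 (25.6% of all genes higher, 29.9% lower), with a median of 0.51. The 2 below were Ebp (-0.73 ± 0.12) and Nsdhl (-0.75 ± 0.28, 0.07 over the kept probes). Under median scaling over all probes 0 were above 0 and 13 below, and over the kept probes 9 were above and 4 below. The largest were Dhcr7 (1.78 ± 0.13), Msmo1 (1.57 ± 0.11), Lss (1.51 ± 0.16) and Cyp51 (1.28 ± 0.12), which over all probes were -0.39, -0.72, -0.67 and -0.87 beside a median of all genes of -1.42. Among the fatty acid genes Scd1 (2.11 ± 0.14) and Scd2 (1.66 ± 0.19) were above 0 (-0.15 and -0.11 over all probes) and Acly, Elovl6 and Fads2 below it. Relative to the median of all genes, 11 of 16 sterol enzymes and 3 of 8 fatty acid genes were higher under either median scaling, against 10 and 5 with quantile normalization.

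**Figure D4:**
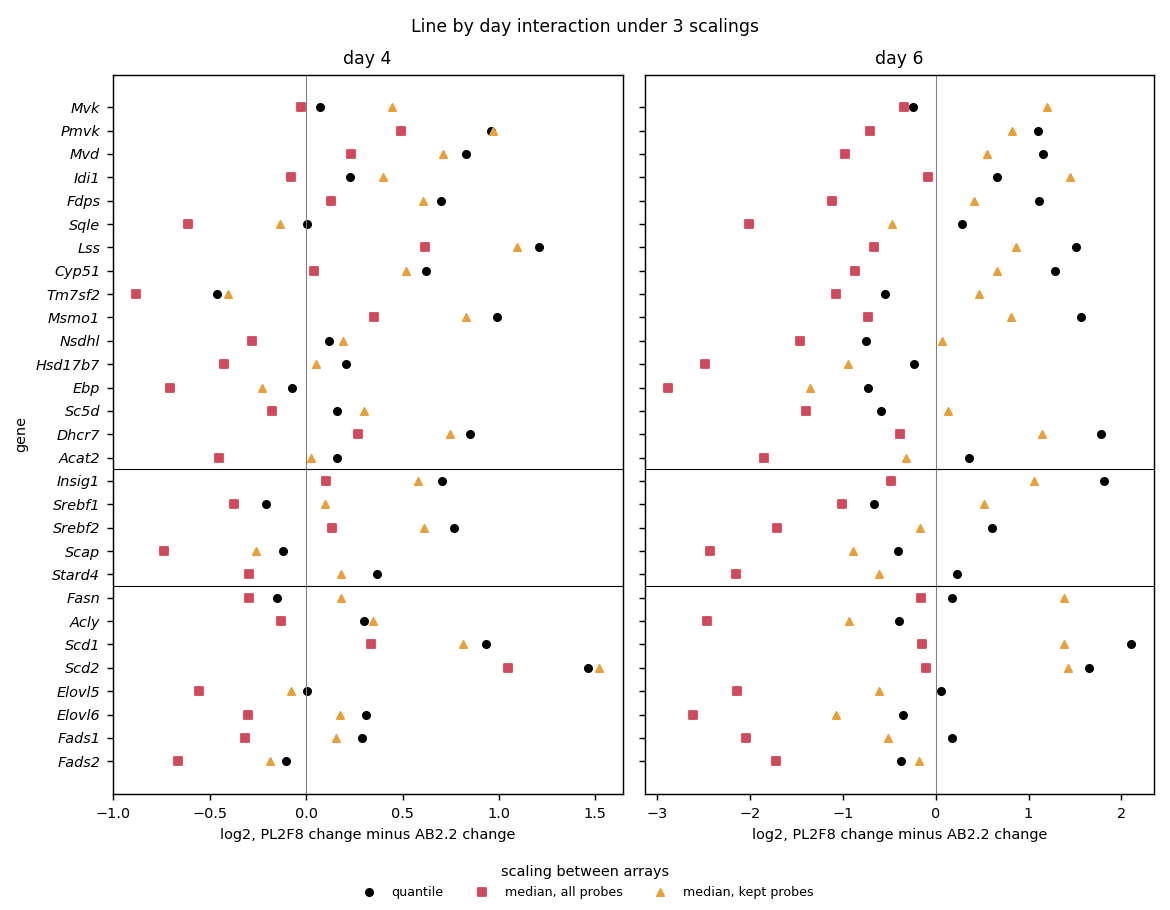
Interaction (x axis, log2, PL2F8 change minus AB2.2 change) at day 4 and day 6 for the 29 genes (y axis) under quantile normalization (black), median scaling over all probes (red) and over the kept probes (orange). At day 4 Lss, Pmvk, Mvd, Msmo1, Dhcr7 and Scd2 are above 0 under all 3, and at day 6 all 29 red points lie below 0 beside a median of all genes of -1.42.

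On the mean of both lines at day 6, 10 sterol enzymes were lower and 1 higher than at day 0 (34.0% of all genes higher, 34.0% lower). Mvk, 1 of the 10, was detected on 1 of the 2 AB2.2 arrays of day 6 and on 0 of the 2 PL2F8 arrays. Of the fatty acid genes 7 of 8 were lower and 0 higher. The median was -0.24 for the sterol enzymes and -0.46 for the fatty acid genes. Against day 4, 12 sterol enzymes and 6 fatty acid genes were lower and 0 of either higher (22.8% of all genes higher, 26.0% lower). At day 8, with 1 array per line, 13 sterol enzymes and 6 fatty acid genes were lower than at day 0 and 0 higher (32.4% higher, 37.5% lower). On the PL2F8 array of day 8 10 of the 29 genes were not detected, among them 6 of the 13 (Mvk, Pmvk, Idi1, Tm7sf2, Nsdhl and Sc5d) and Fads2 of the 6. In PL2F8 these 7 genes have only a bound at day 8, so their falls on the mean of both lines are not supported by that array. In AB2.2 alone, with its 1 array of day 8, 9 sterol enzymes were lower and 1, Hsd17b7, was higher, and 4 fatty acid genes were lower and 0 higher (24.2% of all genes higher, 24.3% lower). Fitted without the 3 dim arrays, which leaves AB2.2 alone at day 8, 9 and 5 were lower.

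Before LIF removal the lines already differed. At day 0 PL2F8 had 8 sterol enzymes below AB2.2 and 2 above it (14.3% of all genes higher, 13.1% lower), with a median of -0.29. The lowest was Lss (-1.00 ± 0.11, adjusted p = 4.66e-05), followed by Idi1 (-0.51 ± 0.16), Fdps (-0.51 ± 0.08) and Mvd (-0.47 ± 0.09), while Sc5d (0.67 ± 0.19) and Hsd17b7 (0.58 ± 0.07) were higher. Scd2 was lower in PL2F8 too (-1.16 ± 0.14). This count depended on single arrays: 3 were lower without PL2F8 replicate 1 and 5 without PL2F8 replicate 2 or either AB2.2 array of day 0, and 3 under median scaling over all probes. Over all 5 days the mean difference was above 0 for 5 sterol enzymes and below 0 for 7 (34.0% of all genes higher, 37.3% lower), and under median scaling over all probes for 0 and 13. Over days 0, 2 and 4, which leaves out the dim arrays, it was above 0 for 3 and below 0 for 7.

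For several genes a second probe gave another course, and some of these probes were dim. The second Fdps probe had a mean log2 signal of 5.63 (detected on 16 arrays) against 11.05 for the chosen one. For Hsd17b7 it was 5.03 (11 arrays) against 8.2, and for Elovl6 4.75 (10 arrays) against 9.5. The second probes of Sqle (7.77), Fads2 (6.00) and Srebf2 (7.95) were detected on 17, 17 and 18 arrays. The second Fdps probe rose by 1.80 at day 2, 0.90 at day 4 and 1.05 at day 6 on the mean of both lines, where the chosen probe gave 0.58, -0.03 and -0.78. The second Sqle probe agreed at day 2 (0.73 against 0.91) and had the other sign at day 4 (-0.75 against 0.39), and at day 6 it was -1.16 against -0.20. The second Fads2 probe gave 0.75, 0.45 and 0.13 against 0.95, 0.17 and -0.64. At day 8, with 1 array per line, it had the other sign (0.544 against -1.115). The chosen Fads2 probe was not detected on the PL2F8 array of day 8, so this difference in sign is not supported by that array. For Hsd17b7 the second probe gave 0.15, -0.47 and -0.54 against 0.31, -0.12 and -0.20, for Srebf2 0.13, 0.71 and 0.84 against 0.43, 0.86 and 0.64, and for Elovl6 0.04, -0.03 and -0.59 against 0.05, -0.27 and -1.06. The 3 kept Insig1 probes all rose on every one of these days, and the 4 kept Nsdhl probes all fell at days 4 and 6.

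Genes around the 2 pathways moved too. Of 16 tested genes of sterol uptake, efflux and control 7 were higher and 1 lower at day 2 on the mean of both lines, where 22.2% of all genes were higher and 23.3% lower. Under median scaling over all probes 4 were higher. The highest were Soat1 (0.94 ± 0.06), which esterifies cholesterol, and the lysosomal exporters Npc1 (0.71 ± 0.05) and Npc2 (0.47 ± 0.07), and the lower was Nus1, a subunit of cis-prenyltransferase, at -0.24 ± 0.08. At day 6, 9 were higher (5 under median scaling over all probes) and 2 lower, beside 34.0% of all genes in each direction, with the lysosomal lipase Lipa at 1.77 ± 0.07, the lipoprotein receptor Vldlr at 1.68 ± 0.05 and Soat1 at 1.67 ± 0.06. The lower were the oxysterol receptors Nr1h2 at -0.46 ± 0.07 and Nr1h3 at -0.25 ± 0.09 (0.28 for Nr1h3 over the kept probes). Of 23 tested genes of fatty acid supply and use 10 were higher (6 under median scaling over all probes) and 6 lower at day 2. Highest were the acyl-CoA synthetases Acsl5 (1.41 ± 0.07) and Acsl4 (1.14 ± 0.08) and the Acaca activator Mid1ip1 (0.67 ± 0.09). Lowest were the fatty acid binding protein Fabp3 (-1.36 ± 0.06), the acetyl-CoA synthetase Acss2 (-0.59 ± 0.08) and the dehydrogenase Acadm (-0.50 ± 0.07). At day 6, 12 were higher (5 under median scaling over all probes) and 6 lower, with Fabp3 (1.78 ± 0.06) and the elongases Elovl1 (1.25 ± 0.05) and Elovl4 (1.12 ± 0.06) highest and Acacb (-0.81 ± 0.09), Acss2 (-0.76 ± 0.08) and Acadm (-0.76 ± 0.07) lowest.

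Markers of cell state moved alongside. The 8 ES cell markers were all detected in both lines at day 0. All 8 were called lower in each line at day 6, where 26.6% of all genes were lower in AB2.2 and 35.0% in PL2F8. Their summed linear signal on an AB2.2 array was 27539 or 27845 at day 0 and 6604 or 6635 at day 6. In PL2F8 it was 31040 or 31081 at day 0 and 11556 or 11655 on the dim arrays of day 6. The markers were not followed under median scaling, which over all probes moved the median of all genes there to -1.08. Visceral endoderm is the extraembryonic tissue that secretes apolipoproteins and handles lipid for the embryo. The summed signal of its 9 markers was 1077 or 1205 in AB2.2 at day 0 and 29408 or 29524 at day 6, all 9 called higher (28.4% of all genes higher). In PL2F8 it was 612 or 622 at day 0 and 2994 or 3458 at day 6, 7 called higher (31.1% of all genes higher). Afp, Apoa1, Apob, Cubn and Ttr were not detected in PL2F8 at day 0, and Cubn was still not detected at day 6. Of 8 fibroblast markers 4 passed the filter, with a summed signal of 717 to 753 at day 0 and 870 to 892 at day 6 in AB2.2 and of 1126 to 1130 and 1801 to 1867 in PL2F8. They did not move as 1 group: at day 6 in AB2.2 Col1a1, Dcn and Mmp2 were called higher and Thy1 lower (-0.85 ± 0.10). In PL2F8 Dcn and Mmp2 were called higher and 0 were lower. The part of these cell types in the changes above was not tested, and in bulk RNA fewer cells of a type and less RNA per cell cannot be told apart.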

How the data were processed

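Total RNA from 18 samples of mouse ES lines AB2.2 and PL2F8 was hybridised to 1-colour Illumina bead arrays. The authors deposited average bead signal as intensity per probe, not normalized, with a detection p-value per probe, and a matrix of normalized intensity per gene name; scanner software and normalization are not given in the sources used here. Of 45281 probe lines 445 had shifted fields and were left out. Probe names were rebuilt by matching matrix rows to probes after quantile normalization on the log2 scale (several targets were tried, and a log2 tolerance of 0.03 was set after the distances were seen). Of 30848 rows 21635 matched 1 probe, 8872 a mean of neighbouring probes, and 341 none.

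Signals were background-corrected from detection p-values (limma 3.58.1 in R 4.3.3, offset 16) and quantile normalized on the log2 scale. Probes detected (p below 0.05) on at least 2 arrays were kept, 23879 in all, and the brightest kept probe stood for a gene. One linear model with a mean per line and day was fitted over 16113 genes (8 residual degrees of freedom), with limma's moderated test and Benjamini-Hochberg adjustment. On simulated data for day 2 against day 0 with 16113 genes, 84 of 100 changes of 0.5 and 100 of 100 of 1 on the log2 scale were recovered, with 13 false calls. The simulation had independent normal noise with 1 spread per gene, 200 changed genes, and no dim arrays or normalization step. It therefore does not give the error rate in these data. The number of arrays limits the precision.

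Alternatives were the background correction, the offset, the scaling, the filter, probe averaging, array weights, the authors' matrix, a replicate block, and leaving out single arrays or the 3 dim ones. The members, gene lists and tests were chosen with earlier results of these data known, and the group counts followed across alternatives and the promoters printed were chosen after values were seen. Values on every array are given for the sterol and fatty acid genes with the largest called changes at each day and for Insig1, Srebf1 and Srebf2, and the context genes are the 3 highest and 3 lowest called. Promoters of 25 members had an entry in the RefSeq table and 7 members did not.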

Additional observations from a re-analysis of the deposited data

Results flagged for a closer look

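The test of the difference itself, PL2F8 change minus AB2.2 change as an interaction term (limma, adjusted p under 0.05), was passed by 32 gene and day combinations among the members. At day 2 the difference was above 0 for Scd2 (0.68), Srebf2 (0.46) and Ebp (0.45). At day 4 the difference was above 0 for Scd2 (1.46), Lss (1.21), Msmo1 (0.99), Pmvk (0.96), Scd1 (0.93), Dhcr7 (0.85), Mvd (0.83), Srebf2 (0.77), Insig1 (0.70), Fdps (0.70) and Cyp51 (0.62). At day 6 the difference was above 0 for Scd1 (2.11), Insig1 (1.82), Dhcr7 (1.78), Scd2 (1.66), Msmo1 (1.57), Lss (1.51), Cyp51 (1.28), Mvd (1.15), Fdps (1.12), Pmvk (1.10), Idi1 (0.66), Srebf2 (0.61) and Acat2 (0.36), and below 0 for Elovl6 (-0.35), Fads2 (-0.37), Acly (-0.40), Ebp (-0.73) and Nsdhl (-0.75). The day 6 values rest on the dim PL2F8 arrays, and under median scaling over all probes every one of those above 0 was below 0. Over the kept probes Srebf2 was -0.17, Acat2 -0.32 and Nsdhl 0.07.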

How the results depend on the processing

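Without background correction, with an offset of 50, with no filter, with array weights, with the authors' matrix, with a replicate block, without the 3 dim arrays and with each array left out in turn, 0 of the gene values that were called under either setting changed sign. Of 340 gene values, median scaling over all probes turned 38 that were called under either setting, and the same over the kept probes, chosen after seeing the data, turned 16; the cause was not tested. Calls were lost for 47 and 15 values and gained for 27 and 28. With the probes of a gene averaged, AB2.2 day 4 gave Fdps 0.091 and Sqle -0.20; PL2F8 day 4 gave Sqle -0.15; PL2F8 day 6 gave Fdps 0.86. Under median scaling over all probes, AB2.2 day 6 gave Ebp 0.014. PL2F8 day 4 then gave Fdps -0.29, Sqle -0.18, Acly -0.26, Scd1 -0.19 and Fads1 -0.36. PL2F8 day 6 then gave Mvd -1.40, Idi1 -0.44, Lss -1.71, Cyp51 -1.19, Msmo1 -1.31, Dhcr7 -0.58, Scd1 -1.33, Scd2 -1.13, Srebf2 -1.05, Scap -1.46 and Stard4 -0.75. The interaction at day 4 then gave Sqle -0.61, Hsd17b7 -0.43, Acat2 -0.45 and Elovl5 -0.55. The interaction at day 6 then gave Pmvk -0.71, Mvd -0.98, Idi1 -0.084, Fdps -1.12, Sqle -2.01, Lss -0.67, Cyp51 -0.87, Msmo1 -0.72, Dhcr7 -0.39, Acat2 -1.85, Scd1 -0.15, Scd2 -0.11, Elovl5 -2.15, Fads1 -2.05, Insig1 -0.48, Srebf2 -1.71 and Stard4 -2.15. Over the kept probes day 6 on the mean of both lines gave Nr1h3 0.28. PL2F8 day 4 there gave Fads1 -0.018. PL2F8 day 6 there gave Mvk 0.80, Mvd -0.18, Lss -0.49, Msmo1 -0.096, Scd1 -0.11 and Srebf1 0.81. The interaction at day 6 there gave Mvk 1.20, Sqle -0.47, Nsdhl 0.067, Acat2 -0.32, Elovl5 -0.61, Fads1 -0.52, Srebf2 -0.17 and Stard4 -0.62. Among counts under median scaling over all probes, sterol enzymes higher numbered 3 at day 4 on the mean of both lines, 1 in PL2F8 at day 4, 0 in PL2F8 at day 6, 0 over the 5 days between lines, and 0, 2 and 0 in the interactions at days 2, 4 and 6. Sterol enzymes lower numbered 8 in AB2.2 at day 6, 16 in PL2F8 at day 6, 3 between lines at day 0, 13 over the 5 days and 13 in the day 6 interaction. Fatty acid genes lower in AB2.2 at day 6 numbered 4, control genes higher at day 6 numbered 2, and the context genes higher numbered 4 and 6 at day 2 and 5 and 5 at day 6. Over the kept probes 3 were higher over the 5 days and 4 lower in the day 6 interaction. Without background correction 1 was lower in that interaction, and without the 3 dim arrays 3 were higher over the 5 days. With median scaling over all probes the genes called higher and lower among all genes, with the quantile-normalized counts in parentheses, were day 2 of both lines with 2437 and 5326 (3577 and 3756), day 4 of both lines with 4023 and 5956 (5188 and 4542), day 6 of both lines with 2664 and 9265 (5476 and 5471), day 8 of both lines with 1194 and 10732 (5227 and 6041), day 6 against day 4 of both lines with 1136 and 9339 (3680 and 4192), AB2.2 day 2 with 2198 and 3429 (2818 and 2783), AB2.2 day 6 with 6436 and 2781 (4581 and 4285), AB2.2 day 8 with 4935 and 2848 (3899 and 3913), PL2F8 day 2 with 1775 and 4783 (2816 and 3057), PL2F8 day 4 with 2245 and 7318 (4250 and 3980), PL2F8 day 6 with 1074 and 11264 (5014 and 5647), PL2F8 day 8 with 154 and 12037 (5107 and 6618), lines at day 0 with 3471 and 1141 (2310 and 2109), lines over all days with 1074 and 11500 (5474 and 6005), interaction at day 2 with 384 and 1233 (664 and 968), interaction at day 4 with 958 and 7101 (2378 and 2439) and interaction at day 6 with 605 and 11642 (4121 and 4825). With the same over the kept probes they were AB2.2 day 6 with 4339 and 6130 (4581 and 4285), lines at day 0 with 2063 and 3793 (2310 and 2109), interaction at day 2 with 1400 and 964 (664 and 968), interaction at day 4 with 3905 and 3033 (2378 and 2439) and interaction at day 6 with 7034 and 6085 (4121 and 4825). With no filter they were day 8 of both lines with 8247 and 6086 (5227 and 6041) and PL2F8 day 8 with 8733 and 6692 (5107 and 6618). With the authors' matrix they were day 8 of both lines with 7936 and 6109 (5227 and 6041) and PL2F8 day 8 with 8690 and 6973 (5107 and 6618). With the 3 dim arrays left out they were day 6 against day 4 of both lines with 2084 and 2150 (3680 and 4192) and lines over all days with 4013 and 3857 (5474 and 6005). With single arrays of days 0 and 2 left out the day 2 interaction had 370 to 441 higher and 603 to 710 lower. Without PL2F8 day 0 replicate 1 or 2 the lines at day 0 had 1534 and 1506 higher and 1341 and 1348 lower. Leaving out each array in turn gave 3 to 9 sterol enzymes lower between lines at day 0, 0 to 1 higher in the day 2 interaction (0 without AB2.2 day 0 replicate 1, AB2.2 day 2 replicate 2, PL2F8 day 0 replicate 1, or any array of AB2.2 day 6, PL2F8 day 2 or PL2F8 day 4) and 1 to 3 lower in the day 6 interaction (1 without AB2.2 day 6 replicate 2 or PL2F8 day 0 replicate 1). The lone array left in such a group is assumed to vary like the other groups. Replicate numbers did not pair the arrays: deviations of same-numbered arrays correlated between -0.026 and 0.043, and 0 of the group pairs exceeded 0.1. With the replicate block 336 of 340 gene values kept direction and call, and the day 2 interaction had 0 sterol enzymes higher in place of 1. Low signal over background limits Mvk, Fasn, Srebf1 and the PL2F8 values of days 6 and 8.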
